A study of Mus musculus with 14 samples.

Results

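The regions described here are 1082 places in the mouse genome where RUNX1 was called in both genotypes of an erythroblast line but GATA2 was called in 1 genotype and not in the other. They were found by merging the peaks of 4 ChIP-seq lists, GATA2 and RUNX1 in wild-type (WT) and in Chd7-/- (KO) G1ER cells, wherever peaks overlapped by 1 bp or more. The merge gave 110132 sites, of which 24114 held a RUNX1 peak from both lists. GATA2 was called in the KO list alone at 726 of these (KO-only sites, 3.01% of the 24114) and in the WT list alone at 356 (WT-only sites, 1.48%). Together they made 4.49% of the sites with RUNX1 in both lists. The others carried GATA2 in both lists (12916) or in neither (10116). Among the 92365 merged sites with any GATA2 peak, whatever RUNX1 did, 27.1% were called in KO alone and 13.6% in WT alone. Over the 13998 sites with RUNX1 in both lists and any GATA2 peak, the same shares were 5.19% and 2.54%. The GATA2 and RUNX1 calls themselves chose the sites, so these counts and the GATA2 and RUNX1 values that follow are descriptions, with no test.

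G1ER is a mouse erythroblast line that lacks its own GATA1 and carries a GATA1 protein fused to an estrogen receptor domain, so that estradiol can switch maturation on. The labels give WT and Chd7-/- cells, both grown with EPO and SCF. They name beta-estradiol for differentiation, scored with benzidine after 48 h, and do not say whether the chromatin came from treated cells or how many KO clones were used. Each of the 4 factor lists came from 1 library, and the 2 lists for S2P, the elongating form of RNA polymerase II that carries phosphate on serine 2 of its tail, each stood for 2 replicates. Chd7 itself lay under no S2P peak (0% of the gene in WT and in KO), so these lists give no check of the knockout. As a check of the cell type, S2P peaks covered 75.2% of the erythroid gene Klf1 in WT and 83.3% in KO, and 93.1% and 93.5% of Zfpm1, which encodes the GATA cofactor FOG1. Gata1 had 65.9% and 64.6%, and Itga2b, a megakaryocyte and progenitor gene, had 30.6% and 33.4%. They covered 54.5% and 39.8% of the mast cell gene Cpa3, and 0% of the late erythroid membrane gene Slc4a1, of Ms4a2, Fcer1a, Pf4 and Gp9, and of the lymphoid and non-blood markers Rag1, Cd3e, Alb, Ins2 and Gfap.

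GATA2 is a zinc finger factor of blood stem and progenitor cells that binds the letters GATA in DNA and gives way to GATA1 as red cells mature. RUNX1 binds TGTGGT-like sequences together with its partner CBFB and shares many enhancers with GATA factors in blood cells. CHD7 is an ATP-dependent chromatin remodeler that moves nucleosomes and is known to sit at enhancers.

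Promoter sequences at 4 of the sites are shown first, because KO-only and WT-only sites differed in their share near gene starts. They are the 2 promoters of each direction with the most GATA2 fragments, each given as the 250 bases before the gene start, 5′ to 3′ on the gene's strand, from RefSeq on GRCm38.p6. Capitals mark the GATA motifs searched (AGATAA and TGATAA, and likewise AGATAG and TGATAG, on both strands). Derl2 and Tmem60 carried KO-only GATA2, and Tmx4 and Morc3 carried WT-only GATA2.
Derl2: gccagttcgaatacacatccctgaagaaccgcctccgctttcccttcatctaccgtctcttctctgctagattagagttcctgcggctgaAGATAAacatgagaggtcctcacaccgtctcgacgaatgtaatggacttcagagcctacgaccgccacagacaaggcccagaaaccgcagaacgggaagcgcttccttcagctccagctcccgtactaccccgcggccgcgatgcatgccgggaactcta
Tmem60: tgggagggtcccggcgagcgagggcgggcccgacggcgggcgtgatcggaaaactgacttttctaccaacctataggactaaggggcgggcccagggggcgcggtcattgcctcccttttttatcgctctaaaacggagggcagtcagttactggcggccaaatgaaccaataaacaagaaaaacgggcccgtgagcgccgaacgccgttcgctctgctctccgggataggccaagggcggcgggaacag
Tmx4: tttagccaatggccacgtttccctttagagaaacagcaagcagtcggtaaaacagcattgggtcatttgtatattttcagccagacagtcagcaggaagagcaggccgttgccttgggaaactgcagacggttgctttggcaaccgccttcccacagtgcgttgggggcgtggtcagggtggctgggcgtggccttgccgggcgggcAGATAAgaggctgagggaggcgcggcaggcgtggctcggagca
Morc3: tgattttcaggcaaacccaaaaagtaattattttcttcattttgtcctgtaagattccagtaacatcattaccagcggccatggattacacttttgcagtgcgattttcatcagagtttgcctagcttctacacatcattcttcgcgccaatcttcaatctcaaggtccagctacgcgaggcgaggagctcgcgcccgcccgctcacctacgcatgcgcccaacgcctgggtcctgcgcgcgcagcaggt
Derl2 encodes a protein of endoplasmic reticulum quality control, and its upstream region is shared with Mis12, a kinetochore gene. The stretch shown lies at chr11:71019842-71020091 (GRCm38, minus strand), with the GATA2 summit at position -178 from the Derl2 start and the GATA match centred at -158. Tmem60, which encodes a small membrane protein, is shown at chr5:20882203-20882452 (plus strand), where the summit lay at -92 and no GATA match was found. Tmx4, for a thioredoxin-related membrane protein, is shown at chr2:134644122-134644371 (minus strand), with the summit at -35 and the match centred at -41. Morc3, for a nuclear body ATPase, is shown at chr16:93831871-93832120 (plus strand), with the summit at -118 and no match. GATA2 fragments at the summit numbered 90 at Derl2, 66 at Tmem60, 45 at Tmx4 and 41 at Morc3. A GATA match thus stood close to the summit at 1 of the 2 promoters shown in each direction. The next KO-only promoters by fragments, Zfyve26, Stim2, Kbtbd7 and Slc19a2, held 0 matches each. Of the next WT-only ones, Neu3 held 2, Thada 1, and Fbxl15 and Lrch4 0. Neu3 had 41 fragments, as many as Morc3. The promoters shown are examples and do not compare the directions.

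GATA2 at the members was weak for sites with RUNX1. A fragment here is a sequenced piece of DNA piled up at the peak's summit, and its number was recovered from the deposited fold enrichment and p-value. KO-only sites had from 9 to 114 GATA2 fragments, with a median of 29 and quartiles of 22 and 37. WT-only sites had from 9 to 286, with a median of 22 and quartiles of 18 and 28. Where GATA2 was called in both genotypes beside RUNX1, the median was 101 fragments in WT and 115 in KO, so most members lay in the low end of that range. Where GATA2 was called once with no RUNX1 peak at all, the median was 15 fragments for KO and 14 for WT, but local background was lower there too. Its median was 1.96 and 1.88 fragments at those sites, against 6.57 at KO-only and 4.64 at WT-only sites, so the members held more fragments over a higher background. The most fragments, 286, came from a pair of WT-only sites on chromosome 2 (chr2:98662339-98662876 and chr2:98666477-98667316) that lay at the highest number the WT lists held. Local background there was 221 fragments and RUNX1 stood at 285 and 286 in WT and 282 in KO, so these 2 sites give no usable height.

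**Figure D1:**
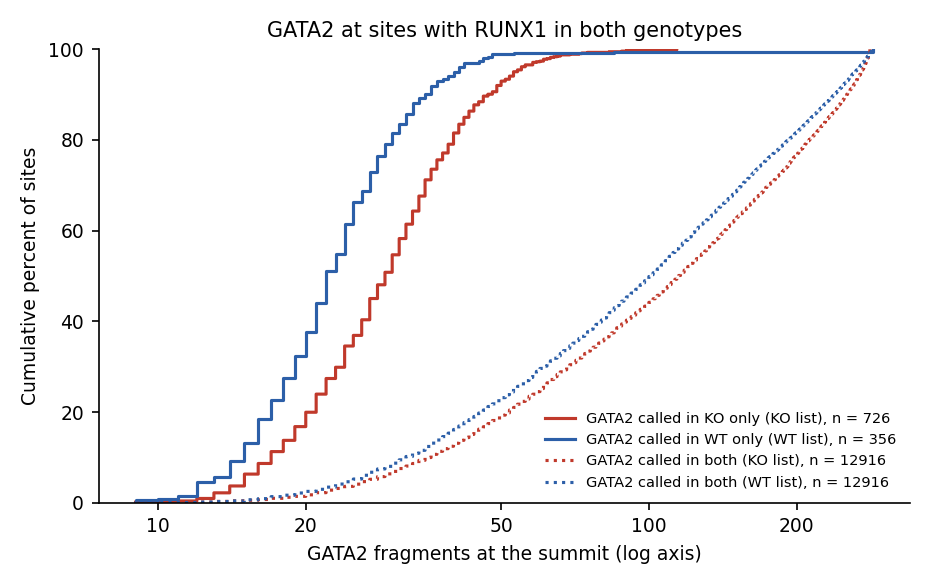
Cumulative percent of sites (vertical axis) by GATA2 fragments at the summit (log axis) for the 726 KO-only and 356 WT-only sites (solid) and for the 12916 sites with GATA2 and RUNX1 in both lists (dotted, 1 line per GATA2 list). The medians are 29 and 22 fragments for the solid lines and 115 and 101 for the dotted ones.

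RUNX1 was the taller of the peaks at most members. Its summit in the genotype with GATA2 held more fragments than the GATA2 summit at 82.9% of KO-only sites and at 79.2% of WT-only sites. The weakest GATA2 peak that made a KO-only site had a -log10 q of 1.38 (21 fragments), and the weakest that made a WT-only site had 1.63 (25 fragments). Just outside, the weakest second GATA2 peak that kept a site out of the KO-only class had 1.48 (28 fragments), and out of the WT-only class 1.31 (26 fragments). Values on either side of the rule were therefore alike at its edge.

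A missing peak is not a missing factor, and the lists carry no signal where nothing was called. The number of fragments that a call would have needed in the other GATA2 list was therefore estimated from the background under that genotype's RUNX1 peak and the weakest p-value the list held. That number had a median of 17 for KO-only sites and 16 for WT-only sites. Scaled to the depth of the other list, the observed GATA2 fragments reached it at 93.5% of KO-only sites (679) and 88.2% of WT-only sites (314). They were at least 2 times the number at 23.3% (169) and 24.4% (87). An equal GATA2 signal in the other genotype would thus have stood well over the line at a minority of members, and for most the margin was smaller, with a median of 1.60 times and 1.59 times. At sites with both factors in both, 99.7% of the GATA2 peaks called in WT and 99.9% of those called in KO reached their own estimated need. Fewer of the weak ones with -log10 q up to 3 did (83.3% of 36 and 81.8% of 33). Most of these peaks were tall, with medians of 101 and 115 fragments. The comparison can show a need set too high, but not one set too low. Each GATA2 list is 1 library, so a difference between genotypes cannot be told apart from a difference between libraries.

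Among the strongest KO-only sites, ranked by -log10 q of the GATA2 peak, RUNX1 was also higher in KO at most. The site at the shared start of Mis12 and Derl2 (chr11:71019101-71020131) had 90 GATA2 fragments in KO (95% Poisson interval 72.4 to 111) and RUNX1 at 219 in WT and 249 in KO. Its GATA2 and RUNX1 summits were 650 bp apart, so the site joined neighbouring peaks rather than one on top of another. In Midn, whose product brings nuclear proteins to the proteasome, a site inside the gene (chr10:80156092-80156567) held 88 GATA2 fragments, 4.37 times the number a WT call would have needed, and RUNX1 went from 31 to 48. Nemp2, for a nuclear envelope protein, held 69 GATA2 fragments or 5.91 times the need (chr1:52640801-52641044), with RUNX1 at 17 in WT and 41 in KO. The Poisson intervals of the RUNX1 values did not overlap at Nemp2 and did overlap at Midn and Mis12.

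Rpl31, a ribosomal protein gene, had 64 GATA2 fragments in KO and RUNX1 at 32 in WT and 71 in KO. Lig1, the DNA ligase of replication, had 40 GATA2 fragments with RUNX1 at 17 and 37. Lpin1, one of the phosphatidate phosphatases called lipins, had 33, with RUNX1 at 13 and 28. In these 3 genes the RUNX1 values differed by about the same amount, with log2 KO over WT of 1.13, 1.10 and 1.08. The related Lpin2 had 44 GATA2 fragments and RUNX1 at 30 and 45. Hook2, a microtubule linker, had 53 with RUNX1 at 23 and 37, and Spidr, a scaffold of DNA repair, had 49 with RUNX1 at 28 and 48. Wdr13 (55 GATA2 fragments, RUNX1 134 and 143), Arhgef2 (55, RUNX1 58 and 69) and Tex2 (56, RUNX1 78 and 99) were, beside Mis12, the sites among these 12 genes with the closest RUNX1 values. RUNX1 was thus higher in KO at each of the 12. The intervals did not overlap at Nemp2 and Rpl31 and overlapped at the other 10. Overlap was not counted over all sites, so this gives no result particular to the members. RUNX1 was 1.5-fold or more higher in KO at 14.7% of all sites with 1 RUNX1 peak in each list. After scaling for depth, RUNX1 was also higher in KO at 70.7% of all sites with 1 RUNX1 peak in each list. The log2 differences at Mis12 (0.16) and Wdr13 (0.07) were below the median of 0.19 over all such sites.

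Some of the strongest KO-only sites were over 5 kb from any protein-coding gene. The highest -log10 q belonged to an intergenic site at chr18:68465567-68465886, with 61 GATA2 fragments in KO (46.7 to 78.4), 8.21 times the need in WT. RUNX1 there was at 12 fragments in WT (6.20 to 21.0) and 90 in KO (72.4 to 111), a log2 difference of 2.88 and the widest of the 689 KO-only sites with 1 RUNX1 peak per list. On chromosome 5, chr5:31596691-31597050 had 114 GATA2 fragments in KO with RUNX1 at 35 and 113, and chr5:33201687-33202097 had 73 with RUNX1 at 40 and 87. The former, 17075 bp from any protein-coding gene, lay 52 bp from an annotated start and counts as a start site below. At each of the 3, then, RUNX1 was called in both genotypes but was not level between them.

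Among the strongest WT-only sites RUNX1 was more often lower in KO or level. The intergenic site chr4:40431886-40432337 had the highest -log10 q, with 85 GATA2 fragments in WT (67.9 to 105), 12.9 times the number a KO call would have needed. RUNX1 there had 84 fragments in WT (67.0 to 104) and 17 in KO (9.90 to 27.2), a log2 difference of -2.33. Cmah, a sialic acid hydroxylase gene, had 29 GATA2 fragments in WT (chr13:24444752-24445164) and RUNX1 at 62 in WT and 21 in KO. Ano6, for a lipid scramblase, had 34 (chr15:95838405-95838761) with RUNX1 at 37 and 11. The intervals of the RUNX1 counts did not overlap at any of these 3 sites.

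Nsmce2, a SUMO ligase of the SMC5/6 complex, had 46 GATA2 fragments with RUNX1 at 35 in WT and 20 in KO. Tcf12, the E protein HEB that partners TAL1 in GATA complexes, had 34 with RUNX1 at 33 and 18, and Arhgef6 had 37 with RUNX1 at 27 and 19. Csad (53, RUNX1 67 and 54) and Tbc1d1 (28, RUNX1 50 and 42) differed less. At Iqgap2, a cytoskeletal scaffold gene, GATA2 had 40 fragments in WT, 6.06 times the need, while RUNX1 stood at 12 in both genotypes. RUNX1 was likewise level at Yaf2, a Polycomb-associated gene (33 GATA2 fragments, RUNX1 49 and 50), and at Rara, a retinoic acid receptor gene (46, RUNX1 52 and 54). Rabgef1 and Exoc6b went the other way: RUNX1 was 60 in WT and 87 in KO at Rabgef1, and 30 and 56 at Exoc6b, although GATA2 was called in WT alone (48 and 31 fragments). Among these 12 genes the RUNX1 intervals of WT and KO did not overlap at Cmah and Ano6 and overlapped at the other 10. Here too, overlap was not counted over all sites, so neither these genes nor the intergenic site give a result particular to the members. RUNX1 was 1.5-fold or more lower in KO at 4.64% of all sites with 1 RUNX1 peak in each list.

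Over all members with 1 RUNX1 peak in each list, RUNX1 followed the direction of GATA2 in part. On the log2 scale, with the 2 lists set level by their lowest background, the median KO over WT difference was 0.30 (95% order-statistic interval 0.25 to 0.33, 689 sites) at KO-only sites and 0.03 (-0.08 to 0.07, 345 sites) at WT-only sites. All sites with RUNX1 in both lists had 0.19. Relative to that shift, the medians were 0.11 and -0.16. RUNX1 was higher in KO at 77.6% of KO-only and 50.7% of WT-only sites, against 70.7% of all sites with 1 RUNX1 peak in each list. Sites with RUNX1 in both and no GATA2 came to 77.8%, close to the KO-only share, and those with GATA2 in both to 65.2%.

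Larger RUNX1 differences were split more unevenly. RUNX1 was 1.5-fold or more higher in KO at 159 KO-only sites (23.1%, exact interval 19.98 to 26.4%) and at 43 WT-only sites (12.5%, 9.17 to 16.4%), against a background of 14.7% of all sites with 1 RUNX1 peak in each list. It was 1.5-fold or more lower in KO at 53 WT-only sites (15.4%, 11.7 to 19.6%) and at 7 KO-only sites (1.02%, 0.409 to 2.08%), against 4.64%. Among 1112 sites with GATA2 in both lists at no more than 37 fragments in each, 12.5% were higher and 8.63% lower in KO. The members were chosen on both factors, so these shares are descriptions. Intervals over sites and fragments cover counting error only.

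**Figure D2:**
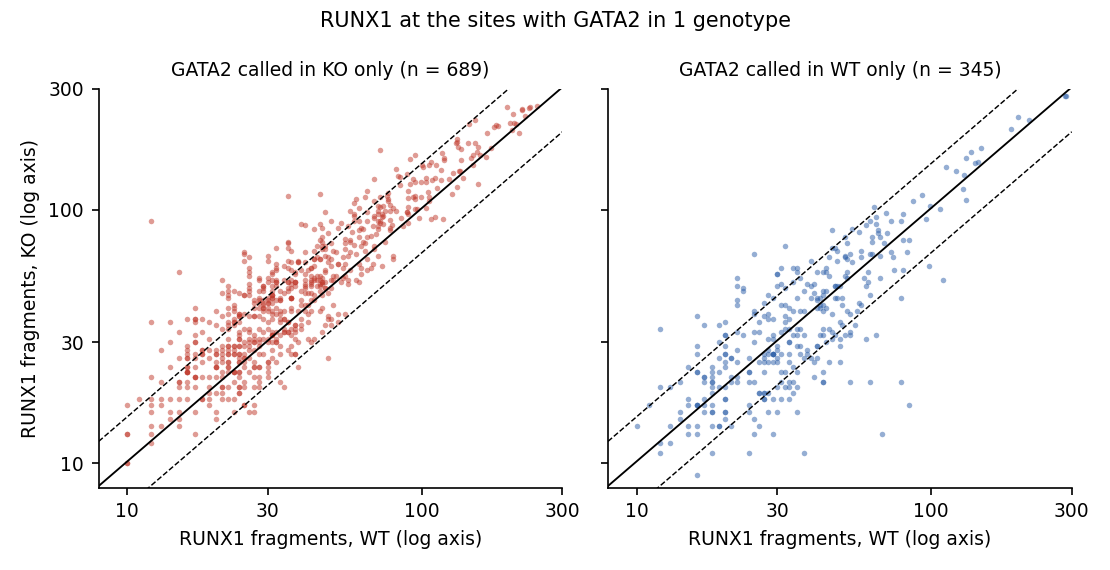
RUNX1 fragments at the summit in WT (horizontal, log axis) and KO (vertical, log axis), 1 point per site with 1 RUNX1 peak in each list, for 689 KO-only sites (left) and 345 WT-only sites (right). The solid line marks equal depth-scaled values and the dashed lines a 1.5-fold difference; 159 points on the left and 43 on the right lie on or above the upper line, 7 and 53 on or below the lower one.

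At KO-only sites the RUNX1 difference was larger where GATA2 was stronger. KO-only and WT-only sites were each split by -log10 q into 4 groups of like size. From the weakest to the strongest group of KO-only sites, the median RUNX1 log2 difference was 0.24, 0.25, 0.30 and 0.39, and the share that was 1.5-fold or more higher in KO was 15.4%, 20.1%, 27.1% and 29.7%. Over the WT-only groups in the same order the median was 0.08, 0.17, -0.09 and -0.12, and the share 1.5-fold or more lower in KO was 9.09%, 10.6%, 17.6% and 24.1%. In each direction the group with the strongest GATA2 leaned furthest toward the genotype of the call. The interval of its median was 0.32 to 0.47 for KO-only sites, against 0.16 to 0.31 in the weakest group. For WT-only sites these were -0.29 to 0.03 and -0.02 to 0.28, and the medians were not in order. Sites of 1 library are not replicates and were chosen and ranked by their GATA2 calls, so these intervals test no trend. Local background, in median log2 KO over WT, also changed along the KO-only groups, from 0.09 in the weakest to -0.08 in the strongest. It was 0.24 in the weakest WT-only group and 0.14 in the strongest. Its part in these differences was not tested.

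Over all members, local background was measured as well, because a higher background makes a call harder. Its median log2 KO over WT was -0.02 at KO-only sites, 0.15 at WT-only sites and 0.09 over all sites with RUNX1 in both. It was higher in KO at 48.3%, 61.0% and 53.7%. Relative to all sites, background thus leaned toward the genotype without the GATA2 call, and its part in the calls was not tested beyond the estimate of need above.

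KO-only and WT-only sites differed in where they lay. An annotated gene start was within 1 kb of 34.0% of KO-only sites (241 of 708, exact interval 30.6 to 37.7%) and of 18.0% of WT-only sites (63 of 350, 14.1 to 22.4%), leaving out chromosome 18, on which starts were not analysed here. The starts used were incomplete elsewhere too. At the Myc site, 378 bp from the gene, the nearest start used was 210598 bp away. Sites at a start that was missing count as away from starts, and how many there are was not counted. Over all sites with RUNX1 in both lists the share was 31.4%, inside the KO-only interval and above the WT-only one. For sites with GATA2 in both lists the share was 10.6% and for those with no GATA2 it was 57.8%, so both directions fell between the 2 stable classes. Sites with weak GATA2 in both genotypes were nearer to the first of these: among the 1142 with at most 37 fragments in both GATA2 lists, which is the upper quartile of KO-only sites, 12.7% had a start within 1 kb. Sites over 5 kb from any protein-coding gene made 21.1% of KO-only and 25.3% of WT-only sites, and 28.8% and 9.68% of the sites with GATA2 in both and in neither.

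The balance between directions therefore depended on position. At gene starts there were 241 KO-only and 63 WT-only sites, a ratio of 3.83, with KO holding 79.3% (74.3 to 83.7%). Away from starts there were 467 and 287, a ratio of 1.63 and a share of 61.9% (58.4 to 65.4%). KO-only sites made 3.28% of the 7350 sites with RUNX1 in both lists at starts and 2.90% of the 16092 away from them. WT-only sites made 0.857% and 1.78%, so the ratio differed mainly through the WT-only share. With the lists of each target cut to equal length, the ratios were 2.41 and 1.19, and without chromosome 5 they were 3.63 and 1.56. For GATA2 called once at sites without RUNX1, the ratio was 2.196 at starts and 1.98 away from them.

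**Figure D3:**
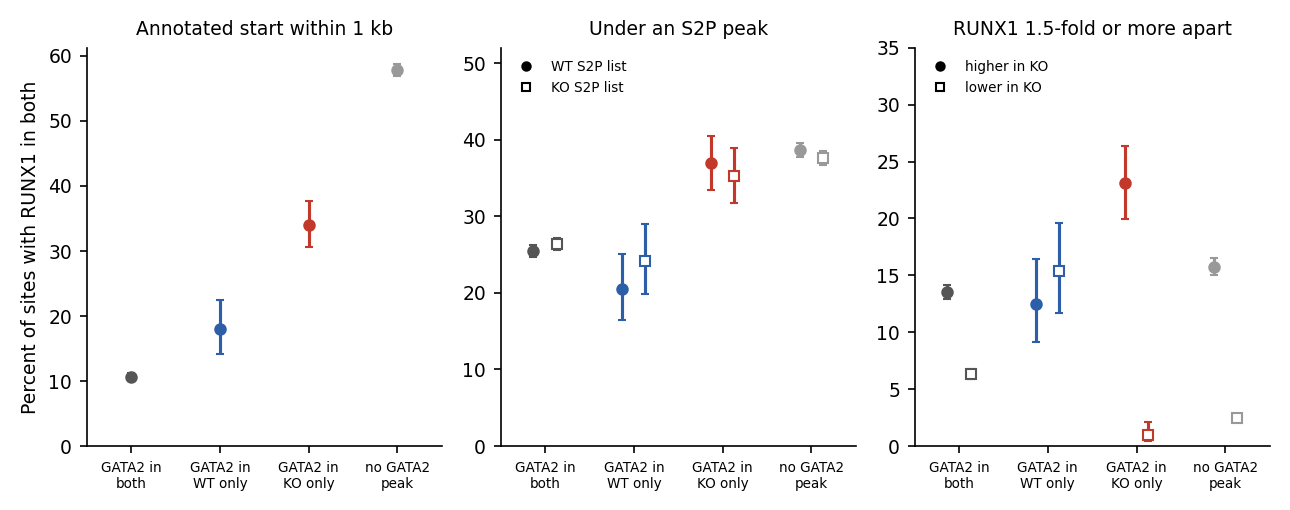
Percent of sites in 4 classes of sites with RUNX1 in both lists (bars are exact 95% intervals) that have an annotated start within 1 kb (left), lie under an S2P peak of the WT or KO list (middle), or have RUNX1 1.5-fold or more higher or lower in KO (right). KO-only sites stand at 34.0% for starts, against 18.0% for WT-only sites, and at 23.1% against 12.5% for higher RUNX1.

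RUNX1 itself differed by position at WT-only sites. Those at starts had a median RUNX1 log2 KO over WT of 0.27 (56 sites) and those away from starts -0.07 (284 sites), whereas KO-only sites had 0.31 (219) and 0.27 (453). The share with RUNX1 1.5-fold or more lower in KO was 5.36% at starts and 17.6% away for WT-only sites. Sites with no GATA2 had 0.27 at starts and 0.18 away, so RUNX1 at starts leaned toward KO in each of these classes.

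Taken over all positions, the GATA2 and RUNX1 summits lay further apart at KO-only sites than at WT-only sites. The median distance was 56 bp (48 to 66) at the former and 40 bp (36 to 44) at the latter. It was 39 bp at the 1142 sites with weak GATA2 in both lists, close to the WT-only value, and 19 bp in KO over all sites with both factors in both. The summits lay within 50 bp at 47.4% and 61.8%, against 78.1% where GATA2 was in both. They were over 250 bp apart at 12.8% of KO-only and 5.90% of WT-only sites. At starts the median distance was 155 bp for KO-only and 95 bp for WT-only sites. Away from starts it was 41 and 38 bp, so the 2 directions were close there. Part of the KO-only members at promoters were thus neighbours under one merged region, as at Mis12.

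Motif matches were counted in the promoter windows (300 bases, 250 before to 50 after a start), the only stretches whose letters were used here. A GATA match stood in 26.1% of the 261 windows that KO-only sites overlapped (20.8 to 31.8%) and in 29.6% of the 54 for WT-only sites (18.0 to 43.6%). The share was 40.3% for sites with GATA2 in both, 12.8% for those with no GATA2, and 29.8% over all 32851 windows of 27025 genes. Median GC content was 61.0%, 59.7%, 58.0% and 63.0% in the 4 classes and 52.7% over all windows. The RUNX motif TGTGGT, also on both strands and free to overlap a GATA match, stood in 8.81% and 16.7% of the members' windows, 17.2% and 11.8% of those of the stable classes, and 16.8% of all.

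Within 50 bases of the GATA2 summit, where the summit fell inside a window far enough from its ends, a GATA match was found at 22 of 73 KO-only sites (30.1%, 19.9 to 42.0%) and at 6 of 22 WT-only sites (27.3%, 10.7 to 50.2%). Sites with GATA2 in both had one at 61.8% of 319 KO summits and 62.2% of 325 WT summits. Around the RUNX1 summits instead, the share was 8.76% of 137 KO-only and 17.6% of 34 WT-only sites, against 27.1% of 572 sites with GATA2 in both and 3.63% of 3690 with no GATA2. The WT-only value, with an interval of 6.76 to 34.5%, was taken around WT summits and the others around KO summits. On that measure the members' shares lay between those of the stable classes.

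Most members sat near other GATA2 binding. A site with GATA2 in both lists lay within 5 kb of 66.5% of KO-only and 64.3% of WT-only sites, against 57.6% of the sites with RUNX1 and no GATA2. The nearest peak of the other GATA2 list was 1991 bp away in the median for KO-only and 1958 bp for WT-only sites, and within 500 bp at 20.2% (147) and 19.9% (71). At the latter, a shifted peak and a missing one cannot be told apart from the lists. Assigned to a protein-coding gene by a summit in it or within 5 kb were 572 KO-only sites (542 genes, 5.93% of the genes with RUNX1 in both lists) and 266 WT-only sites (259 genes, 2.84%).

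Few genes gathered several members. Of 778 genes with any, 725 had 1, 46 had 2 and 7 had 3. Glcci1 had 3 KO-only sites. Klf13, a Krüppel-like factor gene, had 2 KO-only and 1 WT-only site, as did Lpin2, Mtss1 and Sun1, while Rabgap1l and Tmem104 had 1 KO-only and 2 WT-only sites. In all, 23 genes held members of both directions, among them Bcl11a, the fetal globin repressor, Klf3, Zeb2, Rreb1 and the catalase gene Cat. At these genes the direction was thus not shared over the gene.

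By function, members were found at regulators of the blood lineages and of the cell cycle, at low numbers. In the erythroid list, 48 of 55 genes held a site with RUNX1 in both lists; 4 held a KO-only and 1 a WT-only site. They were Mxi1 and Bach1, the heme-sensing repressor (26 GATA2 fragments each), Bcl11a (19) and Foxo3 (16) for KO, and Bcl11a again for WT (22). The 2 Bcl11a sites lay apart within the gene, at chr11:24086224-24086496 for KO (RUNX1 35 in WT and 52 in KO) and chr11:24131907-24132235 for WT (RUNX1 39 and 50). RUNX1 was higher in KO at both of these, whichever way GATA2 went, as it was at 70.7% of all sites with 1 RUNX1 peak in each list.

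In the stem and progenitor list, 24 of 43 genes held a site with RUNX1 in both, 4 a KO-only and 0 a WT-only site. Erg, an ETS factor of blood stem cells, had a pair with 45 and 25 GATA2 fragments (RUNX1 42 and 59, and 21 and 20, in WT and KO). Myc had 41 (RUNX1 27 and 38), Zbtb16, which encodes PLZF, had 32 (28 and 38), and Myb had 24 (28 and 45). RUNX1 was higher in KO at 4 of these 5 sites, beside 70.7% of all sites with 1 RUNX1 peak in each list. Among 13 megakaryocyte genes with RUNX1 in both, 0 had a KO-only site and 2 a WT-only site, the ATP receptor gene P2rx1 (20 fragments, RUNX1 22 and 54) and the integrin gene Itgb3 (14, RUNX1 37 and 26). Both were near the line, at 1.06 and 1.14 times the need.

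Of 25 cell cycle genes with RUNX1 in both lists, 4 held a KO-only and 0 a WT-only site. Cdk6, on chromosome 5, had 2, with 46 and 30 GATA2 fragments and RUNX1 at 17 and 36, and 22 and 46. Top2a had 42 (RUNX1 208 and 219), the inhibitor gene Cdkn1a 38 (71 and 99) and E2f2 34 (67 and 79). The Cdk6, Top2a and Cdkn1a sites included starts within 1 kb, and each of the 5 sites had more RUNX1 fragments in KO. That lean was common, since it was seen at 70.7% of all sites with 1 RUNX1 peak in each list. Of 25 genes for chromatin remodelers and RUNX partners, Chd1 (48 GATA2 fragments), Chd8 (33), Arid1a (31) and Smarca5 (24) held a KO-only site. Chd1 and Chd8 are of the same remodeler family as Chd7, and their sites lay within 1 kb of a start, at chr17:15704632-15705277 and chr14:52257288-52258343.

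The remaining lists held almost no members. The mast cell list had Fcer1g, the shared Fc receptor gamma chain, with a KO-only site of 33 GATA2 fragments at 3.46 times the need (10 genes with RUNX1 in both). Lymphoid genes had Cd79a (24 fragments, 7 genes) and non-blood genes had a site near Mbp (30 fragments, 6 genes). Myeloid genes (7) and housekeeping genes (22) had 0 in either direction. Against the 5.93% and 2.84% over all genes with RUNX1 in both lists, counts of 0 to 4 in lists of this size give no separate result for any list.

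S2P, which the choice of sites did not use, lay over KO-only sites more often than over WT-only sites in both genotypes. A WT S2P peak overlapped 36.9% of KO-only sites (33.4 to 40.5%) and 20.5% of WT-only sites (16.4 to 25.1%), and a KO S2P peak 35.3% (31.8 to 38.9%) and 24.2% (19.8 to 28.9%). Over all sites with RUNX1 in both the share was 31.3% in each list. S2P was found in KO alone at 4.68% and in WT alone at 6.34% of KO-only sites, and at 5.90% and 2.25% of WT-only sites, against 4.03% and 4.002%. Sites with no GATA2 had 4.05% and 5.13%, and those with GATA2 in both had 3.93% and 3.04%. The former thus leaned the same way as KO-only sites and the latter the same way as WT-only sites. The counts behind the members' shares were 34 and 46 KO-only sites and 21 and 8 WT-only sites. There is 1 S2P list per genotype, so no test was possible.

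S2P over the genes that held members hardly differed between genotypes. Coverage, the percent of a gene under S2P peaks, had a median KO minus WT difference of 0.97 points (0.50 to 1.25) over 495 genes with a KO-only site and 1.04 points (0.65 to 1.36) over 216 with a WT-only site. All 9986 genes had 0.67 points. Genes with RUNX1 in both lists had 0.82 points, and genes with a site of both factors in both lists had 0.97. Coverage was 10 points or more higher in KO at 25 genes with a KO-only site (5.05%) and 8 with a WT-only site (3.70%), against 5.76% of all genes, and 10 points or more lower at 20 (4.04%) and 3 (1.39%), against 3.91%. Genes with a site of both factors in both lists had 5.66% higher and 2.49% lower. For KO-only sites both shares were near the background, and for WT-only sites they rest on few genes.

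**Figure D4:**
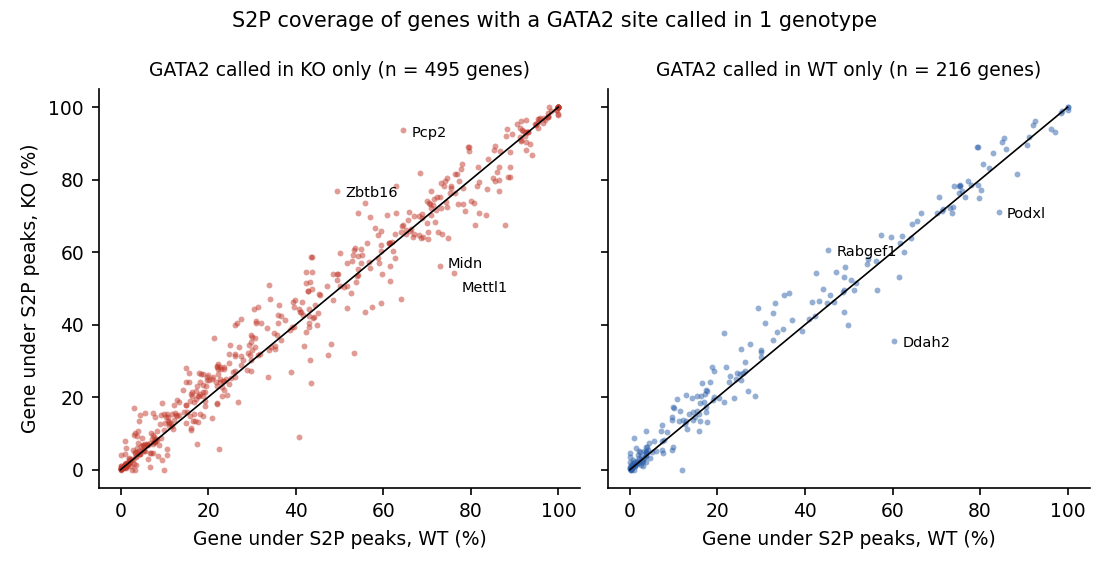
Percent of each gene under S2P peaks in WT (horizontal) and KO (vertical) for 495 genes with a KO-only site (left) and 216 with a WT-only site (right); the line marks equality. Most points lie close to the line, with Pcp2 and Zbtb16 (left) and Rabgef1 (right) above it and Mettl1, Midn (left), Ddah2 and Podxl (right) below.

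Single genes departed from the line both ways. With a KO-only site, S2P coverage went from 64.6% in WT to 93.6% in KO at Pcp2, from 49.4% to 76.9% at Zbtb16 and from 55.9% to 73.6% at Sars, the seryl-tRNA synthetase gene. It went down from 76.1% to 54.3% at Mettl1, a tRNA methyltransferase gene, from 53.3% to 32.3% at Rfc3, a replication clamp loader gene, from 87.8% to 67.6% at the lactate transporter gene Slc16a1, and from 72.9% to 56.1% at Midn. Zbtb16 and Midn thus both held a KO-only site, while their S2P coverage differed in opposite directions. In or within 5 kb of the gene, each also held GATA2 called in both lists, at 43 sites for Zbtb16 and 1 for Midn. With a WT-only site, Ddah2, for an enzyme that clears methylarginine, went from 60.3% to 35.5% and Podxl, a sialomucin gene, from 84.2% to 71.2%, whereas Rabgef1 went from 45.3% to 60.7% and Bcl11a from 79.3% to 89.0%. Sapcd1, a gene with a KO-only site, had the widest drop of either direction, from 40.7% to 8.93%. It fell outside the naming rule, since it was covered for less than 50% in both lists, and was picked after its values were seen.

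By chromosome, KO-only sites made from 1.76% of the sites with RUNX1 in both (chromosome 8) to 4.28% (chromosome 5, 68 of 1589, 3.34 to 5.39%), leaving out the Y chromosome with its 17 sites. Chromosome 1 was near the top as well, at 4.13%. WT-only sites ran from 0.893% on chromosome 18 to 2.25% on chromosome 10, and made 1.13% on chromosome 5. RUNX1 over all stable sites also leaned toward KO on chromosome 5, with a median log2 difference of 0.56 against 0.17 on the others. There the KO-only sites had 0.57 (65 sites) and the WT-only sites 0.55 (18 sites). Without chromosome 5 the members' medians were 0.25 and -0.02. The part of chromosome 5 in the members was measured by leaving it out, and what sets it apart was not tested.

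**Figure D5:**
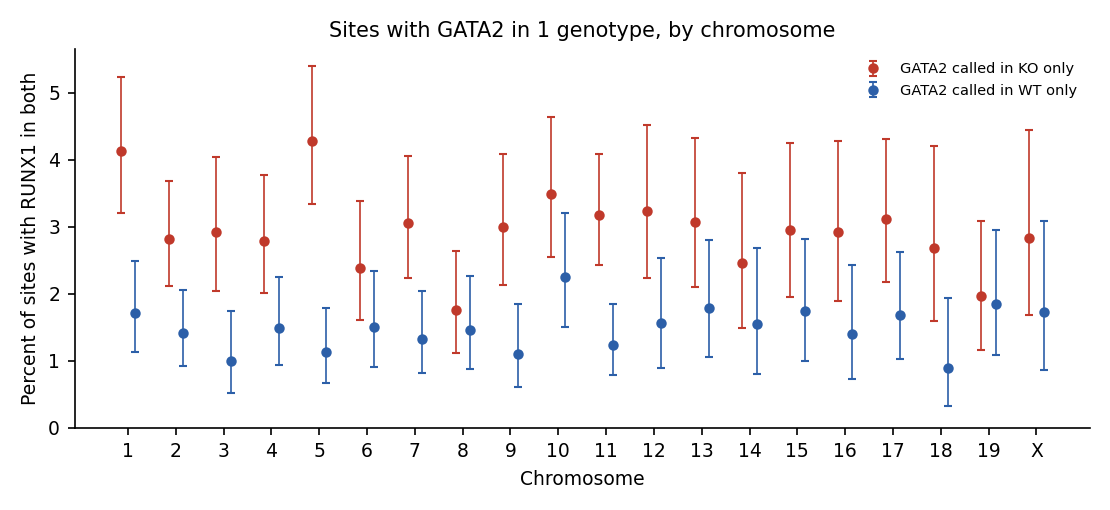
Percent of the sites with RUNX1 in both lists that are KO-only (red) or WT-only (blue), by chromosome, with exact 95% intervals. Chromosome 5 holds the highest KO-only share, 4.28%, beside a WT-only share of 1.13%; most other intervals overlap each other.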

How the data were processed

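The deposited data were 6 ChIP-seq peak lists (GATA2, RUNX1 and S2P in WT and KO) from 14 samples, of which 6 were inputs. Per the submitters' processing notes, Bowtie2 2.2.1 and MACS2 2.1.0 were used on GRCm38, and the peak names carry a q-value limit of 0.05. Which input went with which list is not given in the sources used here. The authors' lists give fold enrichment (a ratio), -log10 p and -log10 q per peak, and a score that was not used. These heights served to describe and rank peaks. Per the labels, chromatin averaged 500 bp and was amplified for 18 cycles.

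Whole fragment numbers and local backgrounds were recovered from fold enrichment and p-value (100% whole within 0.005 of -log10 p) for 68199 WT GATA2, 80611 KO GATA2, 28952 WT RUNX1 and 35281 KO RUNX1 peaks. Library totals were not used here, so lists were scaled by their lowest backgrounds (1.48, 1.57, 1.37 and 1.39 fragments in that order). Genes, starts and promoters came from RefSeq tables of GRCm38.p6 (21887 protein-coding genes). Shares carry exact Clopper-Pearson 95% intervals and fragments exact Poisson ones. With 1 list per target and genotype, no test was run. Python 3.11.15, numpy 2.4.6, pandas 2.3.3, scipy 1.17.1 and matplotlib 3.10.9 were used, and the steps were tested on simulated lists.

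The members and gene lists were chosen with earlier results of these data known. Named genes came from the 12 strongest assigned sites of each direction by -log10 q, the gene lists, the strongest promoter sites, genes with 3 or more sites, and the 5 largest S2P rises and falls among genes of 2 kb or more covered for 50% or more in a list. The use of annotated starts was added after the data were seen. A few members of the gene and marker lists are not reported here.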

Additional observations from a re-analysis of the deposited data

How the results depend on the processing

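Over 17 results and 102 alternatives, 82 stayed close to the main value (a count within 1.5 times, any other value inside the main value's 95% interval), 20 moved and 0 reversed. The KO over WT ratio of sites (2.04) was 1.62 when peaks were joined by summits within 250 bp, 2.34 with member GATA2 peaks at -log10 q of 5 or more, and 1.44 with lists cut to equal length. At starts the ratio of 3.83 became 2.87 with the summit rule and 2.41 at equal length; away from starts 1.63 became 1.39, 1.19 at equal length and 1.90 at -log10 q of 5. A gene end here is either boundary of a protein-coding gene, at its start or its far end. KO-only sites near a gene end (32.2% within 1 kb) were 26.6% within 500 bp, 41.6% within 2 kb and 27.3% with the summit rule. WT-only sites (19.9%) were 15.2% and 26.7% within 500 bp and 2 kb. The KO-only start share was 27.7% with the summit rule, and KO S2P over KO-only sites was 25.8% when asked at the RUNX1 summit. RUNX1 log2 KO over WT at KO-only sites was 0.11 relative to all shared RUNX1 sites and 0.33 by fold enrichment; at WT-only sites (0.03) it was -0.16 and -0.15, so its sign is not settled. S2P coverage at genes covered for 50% or more was 0.49 points higher in KO for KO-only sites. The choices on starts, on the need for a call and on the ceiling were added after the data were seen. The causes of these moves were not tested.

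No paired analysis was possible because the factor lists come from 1 library each and the 2 S2P replicates of a genotype share 1 list, which also leaves no replicate to leave out. Depth limits the members more than the stable sites, since their median GATA2 summit held 29 fragments (KO-only) and 22 (WT-only) against 115 and 101.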
